A study of Mus musculus with 4 samples.

Results

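The MHC class II presentation genes were examined in 2 groups of libraries that are labelled as CD4+ T cells and by genotype as WT or Mek1/2-tKO. The 10 genes, taken by name from the 54752 genes counted in each library, were H2-Aa, H2-Ab1, H2-Eb1, Cd74, H2-DMa, H2-DMb1, H2-DMb2, H2-Oa, H2-Ob and Ciita, and all 10 were found and had enough counts to be tested. RNA was sequenced from 2 WT and 2 Mek1/2-tKO libraries. Mek1/2-tKO cells came from C57BL/6 mice that carried Cd4-Cre+ together with 2 floxed genes, Map2k1 fl/fl and Map2k2 fl/fl, which encode MEK1 and MEK2, the kinases that activate ERK1/2. WT cells came from WT mice, and whether these carried Cre or floxed alleles is not given in the sources used here. In both groups naïve CD4+ T cells enriched from the spleen were stimulated with plate-bound anti-CD3 and with anti-CD28 under Tfh-polarizing conditions, that is with IL-6 and with antibodies that neutralize IFN-γ, TGF-β, IL-2 and IL-4, and viable cells were sorted on day 3. Cd4-Cre deletes floxed genes in T cells from their development in the thymus onward, so that cells of other lineages in such a culture would keep both genes. The labels do not say whether the replicates came from separate animals, and p-values then measure only the spread between these libraries.

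MHC class II molecules present peptides from endosomes to CD4+ T cells. An α chain and a β chain (H2-Aa with H2-Ab1, or an E α chain with H2-Eb1) assemble in the endoplasmic reticulum with the invariant chain Cd74, which blocks the groove and directs the complex to endosomes. There H2-DM (H2-DMa with H2-DMb1 or H2-DMb2) exchanges the remnant of the invariant chain for antigen peptides, and H2-O (H2-Oa with H2-Ob) inhibits H2-DM. Ciita is the transactivator that RFX, CREB and NF-Y recruit to class II promoters. B cells, dendritic cells and macrophages carry class II molecules, whereas mouse T cells express very little of them.

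Library totals lay between 16330802 and 18931090 counts. Map2k1, the first targeted gene, was at 184.5 ± 4.0 CPM (counts relative to the library total after TMM scaling) in WT and at 101.5 ± 5.0 CPM in Mek1/2-tKO (SD, n = 2 in each group), which gave a log2 fold change of -0.86 ± 0.08 (SE; edgeR, adjusted p = 1.29e-06). Map2k2, the second targeted gene, had a log2 fold change of 0.15 ± 0.08 (edgeR, adjusted p = 0.126), and because these counts cover whole genes they do not show whether the floxed exons were lost. Cd4, the co-receptor that defines the labelled cell type, was at 297.0 and 289.5 CPM in WT and at 18.8 and 25.1 CPM in Mek1/2-tKO. Both Mek1/2-tKO libraries stood apart from their label in this marker. Among the genes of the T-cell receptor complex, Cd3e (log2 -1.06), Trac (-0.98) and Cd247 (-0.79) were called lower, whereas Cd3d, Cd3g, Trbc1 and Trbc2 were not called. Mek1/2-tKO is used below for the libraries so labelled.

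All 10 class II genes were upregulated in Mek1/2-tKO compared with WT. Calls required an adjusted p under 0.05 together with a 1.5-fold or larger difference (edgeR's quasi-likelihood test, Benjamini-Hochberg over 14330 genes). Of the 14330 tested genes, 19.3% were called higher and 16.4% were called lower in Mek1/2-tKO, whereas 10 of the 10 class II genes were called higher and 0 were called lower. Their log2 fold changes ran from 1.89 (Ciita) to 4.07 (H2-Ob), with a median of 2.68 beside a median of 0.02 over all tested genes, and their ranks among the tested genes lay between 155 and 1002. The summed level of the 10 genes was 1800 and 1804 CPM in WT and 12351 and 12266 CPM in Mek1/2-tKO, a 6.83-fold difference. Put as a share of a library, they took 0.186% and 0.185% of all counts in WT and 1.17% and 1.22% in Mek1/2-tKO. Both Mek1/2-tKO libraries lay above both WT libraries for each of the 10 genes. How many of all tested genes separate in this way was not counted, so the separation is given as a description only. In bulk RNA, more cells of a type that expresses these genes and more RNA per cell cannot be told apart, and this holds for each value that follows.

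**Figure D1:**
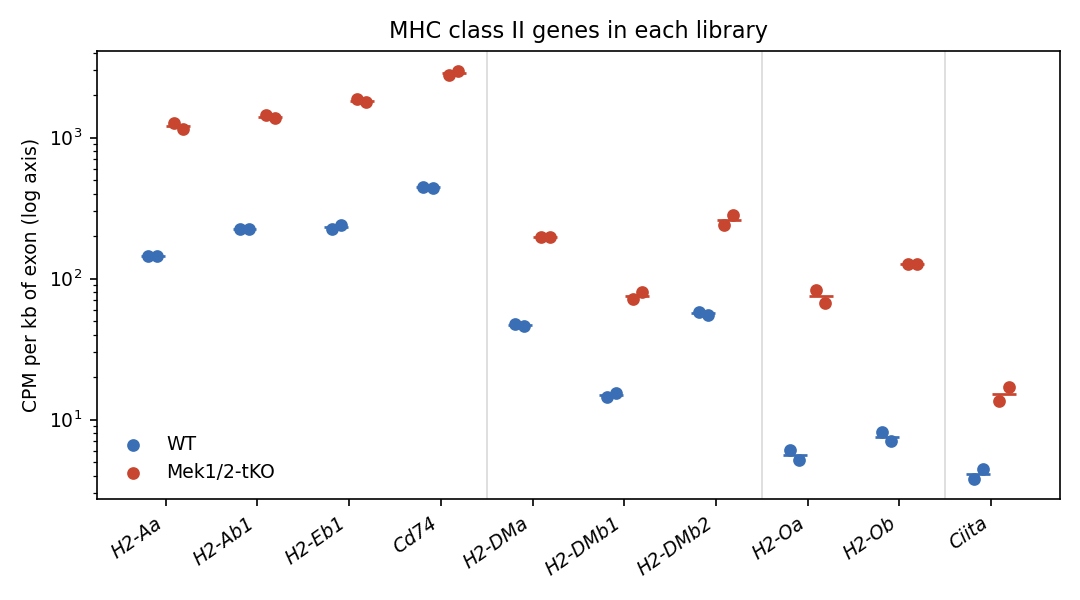
Level of the 10 class II genes in each library, in CPM per kb of exon on a log axis. Points are the 2 WT (blue) and 2 Mek1/2-tKO (red) libraries, lines are group means, and grey lines separate the chains with Cd74, H2-DM, H2-O and Ciita. Every Mek1/2-tKO point lies above both WT points of its gene.

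The chains that hold the peptide were raised between 6 and 9 times in Mek1/2-tKO. H2-Aa, the α chain of I-A (chromosome 17, 34282744 to 34287827, GRCm38), was at 269.8 and 270.3 CPM in WT and at 2393 and 2149 CPM in Mek1/2-tKO, an 8.41-fold rise (log2 3.07 ± 0.08 SE; edgeR, adjusted p = 7.61e-12). H2-Ab1, its β chain partner (34263209 to 34269418), was at 365.1 and 365.2 CPM in WT and at 2353 and 2255 CPM in Mek1/2-tKO (log2 2.66 ± 0.08 SE; edgeR, adjusted p = 1.301e-11). Both chains of I-A thus moved in the same direction with replicates close together. H2-Eb1, the β chain of I-E (34305877 to 34316199), was at 267.1 and 282.3 CPM in WT and at 2213 and 2118 CPM in Mek1/2-tKO (log2 2.98 ± 0.08 SE; edgeR, adjusted p = 6.81e-12). Its partner, the E α chain H2-Ea, had 0 counts in 3 libraries and 2 counts in one Mek1/2-tKO library, and C57BL/6 mice are known to carry an E α gene that is not transcribed. H2-Eb2, a further β chain gene outside the 10, had 166 and 169 counts in WT and 1273 and 1609 counts in Mek1/2-tKO (log2 3.28 ± 0.12 SE; edgeR, adjusted p = 1.03e-10).

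Cd74, the invariant chain (chromosome 18, 60803848 to 60812646), was the most abundant of the 10 genes per length in each of the 4 libraries. It was at 628.6 and 621.4 CPM in WT and at 3912 and 4169 CPM in Mek1/2-tKO (log2 2.69 ± 0.08 SE; edgeR, adjusted p = 1.46e-11). A microRNA gene, Mir5107, shares 0.851% of its exon bases on the same strand. Per kb of exon, Cd74 stood at 1.22 and 1.20 times the sum of H2-Aa and H2-Ab1 in WT and at 1.02 and 1.17 times in Mek1/2-tKO. The lower ratio in Mek1/2-tKO was small beside the spread there, where the 2 libraries lay further apart than the nearest WT and Mek1/2-tKO libraries.

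The 3 H2-DM genes were higher by about 4 to 5 times, and the difference from the fold of the chains was not tested. H2-DMa, the α chain of the peptide exchanger (chromosome 17, 34135182 to 34139101), was at 78.7 and 76.1 CPM in WT and at 322.1 CPM in both Mek1/2-tKO libraries (log2 2.06 ± 0.08 SE; edgeR, adjusted p = 1.32e-10). H2-DMb1, one of 2 β chain genes (34153072 to 34160230), was at 21.7 and 23.0 CPM in WT and at 106.2 and 118.8 CPM in Mek1/2-tKO (log2 2.33 ± 0.11 SE; edgeR, adjusted p = 9.61e-10). H2-DMb2, the other β chain gene (34143307 to 34151553), was at 99.4 and 94.0 CPM in WT and at 409.6 and 483.6 CPM in Mek1/2-tKO (log2 2.21 ± 0.09 SE; edgeR, adjusted p = 3.38e-10). Among the stretches of 150 bases in their transcripts, 4.85% of H2-DMa, 4.71% of H2-DMb1 and 4.14% of H2-DMb2, and 5.47% of H2-Oa described next, also occur in another gene, where uniquely mapped reads could be lost. H2-DMb2 was the more abundant β chain per kb of exon in all 4 libraries, at 3.99 and 3.55 times H2-DMb1 in WT and 3.35 and 3.54 times in Mek1/2-tKO, and these ratios did not separate by more than the spread within WT.

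H2-O, the inhibitor of H2-DM, showed the largest log2 fold changes of the 10 genes. H2-Oa, its α chain (chromosome 17, 34092340 to 34095234), had 155 and 132 counts in WT and 1695 and 1644 counts in Mek1/2-tKO, or 7.96 and 6.85 CPM against 109.5 and 87.6 CPM (log2 3.73 ± 0.15 SE; edgeR, adjusted p = 1.81e-10). An opposite-strand gene, BC051537, shares 15.2% of the exon bases of H2-Oa, and whether the counting used the strand is not given in the sources used here. H2-Ob, its β chain (34238903 to 34245907), had 499 and 426 counts in WT and 6214 and 7534 counts in Mek1/2-tKO, or 25.6 and 22.1 CPM against 401.4 and 401.2 CPM (log2 4.07 ± 0.09 SE; edgeR, adjusted p = 1.50e-12). H2-Ob shares no exon base with another gene in the deposited annotation. H2-O is known as a product of B cells and of some dendritic cells, in contrast to H2-DM, which all professional presenting cells make.

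Because the groups of genes rose by different amounts, the proportions between them differed between the genotypes, as ratios of CPM per kb show. The sum of H2-Oa and H2-Ob was 11.8% and 10.5% of the sum of the 3 H2-DM genes in WT, and 41.5% and 34.7% in Mek1/2-tKO, a 3.43-fold higher proportion of the inhibitor. In contrast, the H2-DM sum was lower relative to the I-A chains, with 32.9% and 31.8% of H2-Aa plus H2-Ab1 in WT and 18.7% and 22.2% in Mek1/2-tKO. Within I-A, H2-Aa was at 0.646 and 0.646 of H2-Ab1 in WT and at 0.888 and 0.833 in Mek1/2-tKO, and H2-Eb1 went from 1.01 and 1.07 to 1.3 and 1.299 of H2-Ab1. The 2 genotypes did not overlap in these 4 ratios, nor in any other ratio that was computed. Lack of overlap therefore does not set these 4 ratios apart, and no test was made on them. They are ratios of RNA and do not measure how much of each protein dimer was assembled.

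**Figure D2:**
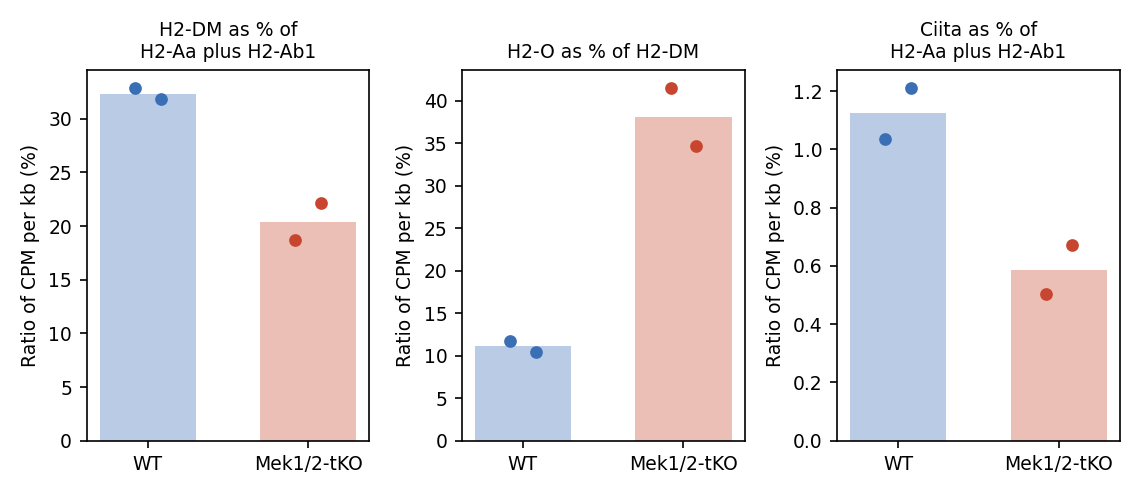
Proportions between groups of class II genes, each as a ratio of CPM per kb of exon in percent. Bars are group means and points are the 2 libraries of WT (blue) and Mek1/2-tKO (red). H2-DM relative to the I-A chains and Ciita relative to the I-A chains were lower, and H2-O relative to H2-DM was higher, in both Mek1/2-tKO libraries.

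Ordered by CPM per kb of exon, the WT levels ran from Cd74 (mean 443.3) through H2-Eb1 (232.0), H2-Ab1 (223.1), H2-Aa (144.1), H2-DMb2 (56.6), H2-DMa (47.2), H2-DMb1 (15.03), H2-Ob (7.57) and H2-Oa (5.63) to Ciita (4.13), with no overlap between the libraries of any neighbours in this order. In Mek1/2-tKO the order of the first 6 genes was the same, from Cd74 (2866) to H2-DMa (196.3). H2-Ob (127.3) then lay above H2-DMb1 (75.8), and H2-Oa (75.0) reached the level of H2-DMb1, with overlapping libraries. Ciita (15.3) remained the least abundant of the 10 per length.

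Ciita, the transactivator required for class II transcription, had the smallest log2 fold change of the 10 genes. The gene (chromosome 16, 10480059 to 10528418) had 707 and 818 counts in WT and 2013 and 3032 counts in Mek1/2-tKO, or 36.3 and 42.4 CPM against 130.0 and 161.5 CPM, a 3.71-fold rise (log2 1.89 ± 0.12 SE; edgeR, adjusted p = 2.09e-08). The Mek1/2-tKO libraries differed from each other more than for the I-A chains, but both lay above both WT libraries. Relative to H2-Aa plus H2-Ab1 per kb, Ciita was at 1.04% and 1.21% in WT and at 0.502% and 0.671% in Mek1/2-tKO, with no test made. An opposite-strand gene, Dexi, shares 3.45% of the exon bases of Ciita. Ciita is transcribed from several promoters that differ between dendritic cells, B cells and cells treated with IFN-γ, and counts per gene do not tell these transcripts apart.

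The factors that act with or upstream of Ciita did not move in 1 direction. Of 21 listed regulators of class II transcription, 9 were called higher and 1 was called lower, beside 19.3% and 16.4% of all tested genes. Their median log2 fold change was 0.26. Among the subunits of RFX, the complex that binds the X box of class II promoters, Rfx5 (log2 0.67 ± 0.14 SE) and Rfxank (1.26 ± 0.22) were called higher, whereas Rfxap (0.14 ± 0.12) was not called. The 3 NF-Y subunits, which bind the Y box, were not called, with log2 fold changes of -0.17 for Nfya, -0.42 for Nfyb and 0.26 for Nfyc, and neither was Creb1 (-0.47). Irf1 (0.99 ± 0.07), which drives Ciita after IFN-γ, was called higher. Irf8 (0.07 ± 0.08) and Prdm1 (0.66 ± 0.34), a repressor of Ciita in plasma cells, were not called. Pax5, a B-lineage factor, was called higher (1.02 ± 0.12), and the largest rise was that of Spi1, or PU.1, a factor of B cells and myeloid cells (2.33 ± 0.14). Irf4 was the regulator called lower, at 577.7 and 549.8 CPM in WT and 186.4 and 208.8 CPM in Mek1/2-tKO (log2 -1.51 ± 0.08 SE; edgeR, adjusted p = 4.19e-09).

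Class II genes are known to share a promoter module, in which an X box lies a fixed distance before a Y box, and since the 10 genes rose together their promoters were read from RefSeq (GRCm38.p6). The letters GNAAC, from the X box, followed 22 to 32 bases later on the same strand by GATTGG, the Y box (CCAATC on the other strand), were searched on both strands in the 250 bases before each gene's start. This arrangement occurred in 186 of 32851 promoters (0.566%), although GATTGG alone occurred in 14.6% and GNAAC alone in 79.6%. RefSeq promoters matched 7 of the 10 genes, and 5 of these held the arrangement, namely H2-Aa, H2-Eb1, H2-DMb1, H2-Oa and H2-Ob, from 76 to 94 bases before the start in RefSeq. The starts in the deposited annotation differ, and by these the 68 bases around the arrangement in H2-DMb1 lie inside its exon, as do 16 bases of the H2-Oa sequence shown. H2-DMa and H2-DMb2 did not hold it, and both rose as well. In H2-DMb2, however, TTAAC, which differs from GNAAC only in its first letter, lies as far before GATTGG as GCAAC does in H2-Aa. By the deposited annotation this stretch of H2-DMb2 (chr17:34145111-34145178) lies inside the gene, which starts at 34143307, but in no exon. H2-Ab1, Cd74 and Ciita were not read. The sequences below, 5′ to 3′ on the gene's strand, are shown because they carry the shared letters in genes of both kinds of dimer, with GNAAC and GATTGG in capitals. They lie at chr17:34287852-34287919 on the minus strand (H2-Aa) and, on the plus strand, at chr17:34305761-34305827 (H2-Eb1), chr17:34092288-34092355 (H2-Oa) and chr17:34238803-34238867 (H2-Ob).
H2-Aa: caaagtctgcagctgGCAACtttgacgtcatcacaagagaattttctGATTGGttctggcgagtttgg
H2-Eb1: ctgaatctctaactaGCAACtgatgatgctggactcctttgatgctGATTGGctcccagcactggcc
H2-Oa: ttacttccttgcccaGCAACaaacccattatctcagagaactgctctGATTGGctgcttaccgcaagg
H2-Ob: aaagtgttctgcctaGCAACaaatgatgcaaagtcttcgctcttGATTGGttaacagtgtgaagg

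The gap between the capitals was 27 bases in H2-Aa and H2-Oa, 26 in H2-Eb1 and 24 in H2-Ob. H2-Eb2 held the same arrangement with a gap of 26 bases. Outside the class II genes, 89 tested genes had a promoter with this arrangement, and 9 of them (10.1%) were called higher and 15 were called lower in Mek1/2-tKO, with a median log2 fold change of 0.04. That share of higher calls lay below the 19.3% of all tested genes. The 15 lower calls among the 89 stand beside 16.4% of all tested genes called lower. With a gap of 15 to 40 bases, 28 of 192 such genes (14.6%) were called higher.

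The class II genes of chromosome 17 lie among genes of other function, and the rise was not shared by all of them. From H2-Oa to H2-Eb2 the deposited annotation counts 19 genes. The 9 class II genes tested there, H2-Eb2 included, had log2 fold changes between 2.06 and 4.07. Of the 8 other tested genes, 3 were called higher. Tap1 (-0.02 ± 0.08 SE) and Tap2 (-0.11 ± 0.10), the transporter of class I peptides, and Psmb8 (0.32 ± 0.07), a subunit of the immunoproteasome, were not called, although they lie between H2-DMb1 and H2-Ob. Brd2, between H2-Oa and H2-DMa, was not called either (-0.25 ± 0.08). Nor was Gm20496 (1.31 ± 0.65), with 12 and 8 counts in WT and 27 and 16 counts in Mek1/2-tKO. Psmb9, a second immunoproteasome subunit, was called higher at 293.7 and 295.2 CPM in WT and 504.5 and 437.1 CPM in Mek1/2-tKO (0.68 ± 0.08). The 2 other called genes were rarely counted, with 2, 0, 20 and 13 counts for Gm20513 and 4, 1, 47 and 64 counts for ENSMUSG00000092222.1 in the 2 WT and then the 2 Mek1/2-tKO libraries. Gm20513 ends just before H2-Eb1, and ENSMUSG00000092222.1 lies between H2-Ob and H2-Ab1. These 2 genes could be tested only through the Mek1/2-tKO libraries, so that their higher calls follow from the filter. They were singled out after their values were seen.

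**Figure D3:**
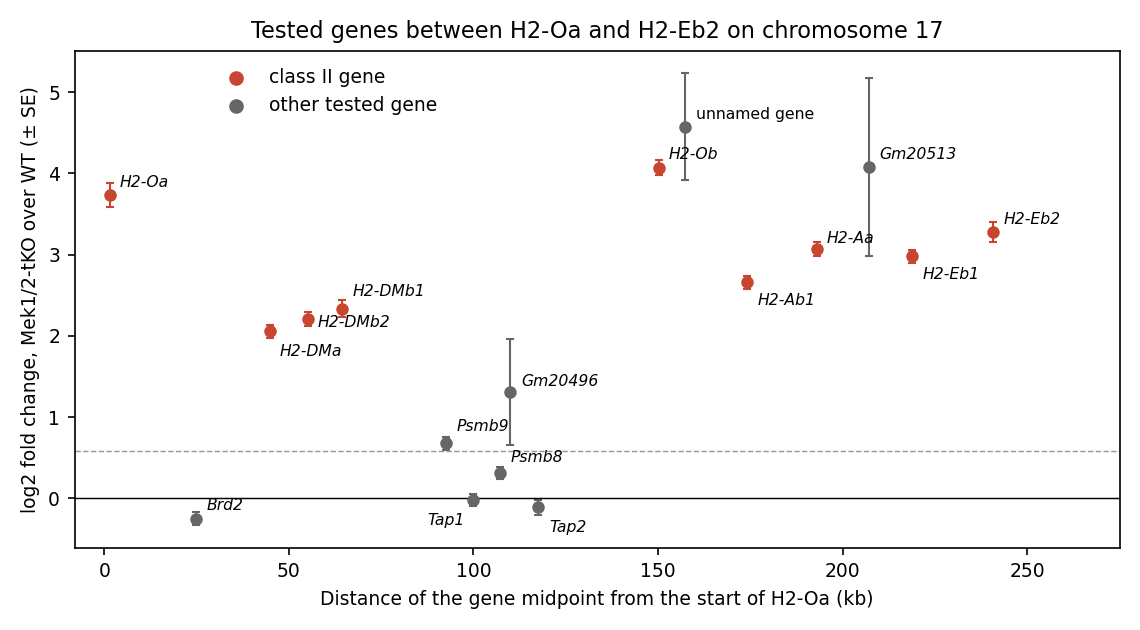
Log2 fold change (± SE) of the tested genes from H2-Oa to H2-Eb2, against the distance of the gene's midpoint from the start of H2-Oa in kb. Class II genes (red) lie between 2.06 and 4.07. Of the other genes (grey), Brd2, Tap1, Psmb8 and Tap2 lie between -0.25 and 0.32, below the dashed line of a 1.5-fold rise. Psmb9, Gm20496, Gm20513 and ENSMUSG00000092222.1 (drawn as unnamed gene) lie above that line.

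Genes that prepare peptides for class II molecules were mostly higher in Mek1/2-tKO. Of 12 listed genes of antigen processing, 10 were called higher and 1 was called lower, beside 19.3% and 16.4% of all tested genes. Their median log2 fold change was 1.03. Ctss, the protease that cuts the invariant chain in B cells and dendritic cells, went from 80.83 and 84.96 CPM to 339.4 and 322.0 CPM (log2 2.00 ± 0.08 SE). Lgmn, an asparaginyl endopeptidase, rose by 2.80 ± 0.14, Ifi30, the thiol reductase GILT, by 1.77 ± 0.08, and Cst3, an inhibitor of cathepsins, by 2.32 ± 0.10 on the log2 scale. The largest rise was that of Ctsh (3.40 ± 0.10), and Ctsb was called lower (-0.64 ± 0.07). Sppl2a, the intramembrane protease that clears the last fragment of the invariant chain in B cells, was at 71.9 and 63.0 CPM in WT and 66.9 and 70.0 CPM in Mek1/2-tKO and was not called.

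Of 12 genes of class II turnover and sorting, 3 were called higher and 0 were called lower, with a median log2 fold change of 0.15, a share of higher calls near the 19.3% of all tested genes. Marchf1, the ubiquitin ligase that removes class II molecules and CD86 from the surface of B cells and dendritic cells, had 52 and 57 counts in WT and 486 counts in each Mek1/2-tKO library (log2 3.34 ± 0.19 SE; edgeR, adjusted p = 9.59e-09). Its relative Marchf8 (-0.18 ± 0.29) was not called. Cd83, which opposes Marchf1, was higher (1.39 ± 0.08), and the largest rise was that of Cd63 (4.29 ± 0.45), a tetraspanin of class II vesicles with 5 and 6 counts in WT and 86 and 109 in Mek1/2-tKO. Cd63 had enough counts to be tested only through the Mek1/2-tKO libraries, and with at least 10 counts required in every library 2 genes of the list were called higher. The median of 8 costimulatory genes of presenting cells was 1.25. Of these 8, 6 were called higher and 0 lower, beside 19.3% and 16.4% of all tested genes. Cd80 (2.55 ± 0.19), Cd86 (1.61 ± 0.14) and Cd40 (0.88 ± 0.10) were among them, and the range of the called genes ran from Pdcd1lg2 (0.81 ± 0.17) to Icosl (3.75 ± 0.14), the ligand of ICOS.

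The class I pathway, which presents peptides from the cytosol and is also induced by interferon, was called in part. Of its 13 listed genes, 5 were called higher, beside 19.3% of all tested genes, and 1 was called lower, with a median log2 fold change of 0.32. The largest rise was that of B2m, the class I light chain (1.27 ± 0.09 SE), and Erap1, which trims peptides, was called lower (-0.67 ± 0.08). Nlrc5, which activates class I genes as Ciita activates class II genes, was at 119.8 and 131.8 CPM in WT and 140.0 and 147.0 CPM in Mek1/2-tKO and was not called. Ifng, the cytokine that induces Ciita, was at 127.0 and 120.9 CPM in WT and at 2054 and 1773 CPM in Mek1/2-tKO (log2 3.95 ± 0.10 SE; edgeR, adjusted p = 1.80e-12), in cultures that held an antibody against it. Its receptor chain Ifngr1 was called higher (0.84 ± 0.10) and Ifngr2 was not (0.51 ± 0.11). Of the 14 listed genes of IFN-γ signalling, 9 were called higher and 1, Jak2 (-1.54 ± 0.08), was called lower. These calls stand beside 19.3% and 16.4% of all tested genes, and the median of the list was 0.93.

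Both listed receptors of class II molecules were lower in Mek1/2-tKO, opposite to their ligands. Cd4, given above, fell by 3.73 ± 0.12 on the log2 scale (edgeR, adjusted p = 2.43e-11). Lag3, an inhibitory receptor that binds class II molecules, was at 106.2 and 107.7 CPM in WT and at 23.6 and 23.0 CPM in Mek1/2-tKO (log2 -2.20 ± 0.10 SE; edgeR, adjusted p = 1.01e-09). Of 16 listed T-cell markers, 9 were called lower, Cd4 by the most, beside 16.4% of all tested genes, and 1, Thy1 (0.83 ± 0.07), was called higher. Their summed level was 4546 and 4611 CPM in WT and 3539 and 3342 CPM in Mek1/2-tKO.

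Markers of B cells moved together with the class II genes. Of 20 B-lineage markers, 19 were called higher and 1 was called lower, beside 19.3% and 16.4% of all tested genes. Their median log2 fold change was 2.44. The summed level of the list was 1889 and 1858 CPM in WT and 9907 and 9758 CPM in Mek1/2-tKO. That is a 5.25-fold difference beside the 6.83-fold difference of the class II genes. None of the 20 was at 0 in any group. The called genes ranged from Fcrla (6.17 ± 0.13 SE) to Fcer2a (-0.59 ± 0.08), whose call was lost without WT replicate 1 or Mek1/2-tKO replicate 1. Set against Cd79a, a subunit of the B-cell receptor complex singled out with its values known, the class II genes did not keep 1 proportion. Per kb, H2-Aa was at 3.69 and 3.56 times Cd79a in WT and 2.95 and 2.72 times in Mek1/2-tKO, H2-DMa went from 1.23 and 1.15 times to 0.454 and 0.466 times, and H2-Ob went from 0.208 and 0.173 times to 0.294 and 0.302 times. The part of B-lineage cells in the class II values was not tested.

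Myeloid markers were also higher but stood at lower levels. Of 14 dendritic-cell markers, 7 had enough counts to be tested and all 7 were called higher, beside 19.3% of all tested genes. These 7 were also called with at least 10 counts required in every library. They ran from Ccl22 (1.23 ± 0.10 SE) to Ccl17 (2.99 ± 0.43). The list summed to 125.8 and 130.6 CPM in WT and 462.4 and 429.3 CPM in Mek1/2-tKO. The Mek1/2-tKO sums came mostly from Fscn1 (150.8 and 165 CPM), Ccl22 (148 and 130.2 CPM) and Batf3 (128.6 and 102.5 CPM), singled out after their values were seen. Clec9a, Siglech, Clec4a4 and Cd209a were at 0 in WT, Clec4a4 was at 0 in all libraries, and Clec9a and Siglech reached 5 and 6 counts at most in Mek1/2-tKO. Of 14 macrophage and monocyte markers, 6 were tested and called higher, beside the same 19.3%. However, 5 were called by DESeq2 and with the replicate block, and 4 with at least 10 counts required in every library. Adgre1 could be tested only through the Mek1/2-tKO libraries, so that its call follows from the filter. The list had sums of 51.5 and 50.9 CPM in WT and 605.6 and 532.6 CPM in Mek1/2-tKO. Most of the latter came from Apoe (266.2 and 261.9 CPM) and Ly6c2 (313.4 and 250.2 CPM), which other cells also express and which were singled out after their values were seen. The smallest rise in the list was that of Cd68 (0.78 ± 0.31). Adgre1 and C1qa were at 0 in WT, and Adgre1, the F4/80 antigen, had 66 and 83 counts in Mek1/2-tKO, which is at least 28.1-fold higher than a floor of 3 counts in each WT library. The part of these cells in the class II values was not tested.

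**Figure D4:**
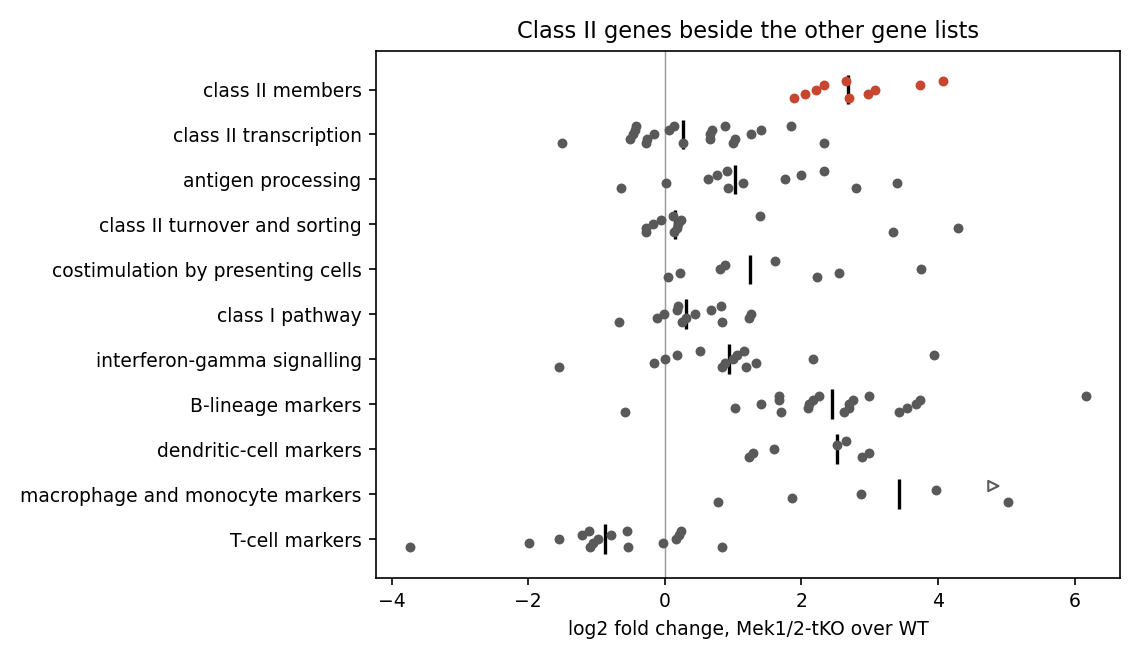
Log2 fold change of each tested gene in the class II genes (red, top row) and in 10 other lists (grey), with the median of each list as a black line. The open triangle is Adgre1 at its lower bound. All class II genes and 19 of the 20 B-lineage markers lie to the right of 0, while the regulators, the class I pathway and the turnover genes straddle 0.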

How the data were processed

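The mRNA of 2 WT and 2 Mek1/2-tKO cultures was sequenced as read pairs. The authors trimmed reads (Trimmomatic 0.36), mapped them to GRCm38 and deposited raw counts per gene of uniquely mapped reads from featureCounts (Subread 1.5.1), versions as in the submitters' processing notes. The annotation release and the strand setting are not given in the sources used here. The genotypes were compared in edgeR 4.0.16 (R 4.3.3) with filterByExpr, TMM scaling, a robust quasi-likelihood fit and p-values adjusted by Benjamini-Hochberg. Thresholds were those of the study's methods, an adjusted p of 0.05 and a 1.5-fold difference. CPM per kb used the deposited exon lengths. Tested on simulated counts of this comparison, the fit recovered 97% of 200 genes changed 2-fold or 4-fold, with 3 unchanged genes called among 14036 tested. The changed genes were drawn from well-counted genes, rose and fell in equal numbers, and were far fewer than the genes called in the data. Recovery at low counts and scaling under so wide a change were therefore not tested. Symbols were matched to 54723 of 54752 identifiers. Replicates differed by more than sampling noise (chi-square per gene 4.19 in WT and 10.9 in Mek1/2-tKO).

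The members and lists were chosen with earlier results of these data known. Genes given by name were the 10 members, listed genes whose known role touches class II presentation, and the called genes with the largest and smallest log2 fold change of each other list, apart from those said to be singled out, the defining cell markers at or near 0, and the T-cell receptor complex genes. Some listed genes are counted in their lists but are not reported here by name. As alternatives, edgeR's likelihood-ratio test, DESeq2 1.42.0, other scalings and filters, a replicate block, other thresholds, a wider promoter gap and leaving out each library were tried. The floor of 3 counts covers counting error only, whereas standard errors include the spread between replicates. Python 3.11.15 with pandas 2.3.3 and matplotlib 3.10.9 read the promoters and drew the plots.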

Additional observations from a re-analysis of the deposited data

How the results depend on the processing

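All 10 class II genes were called higher and 0 lower under each alternative, DESeq2 and the removal of any library included, and each member kept its direction and its call. Their log2 fold changes moved little, the most in Ciita, from 1.72 to 2.04 when 1 library was left out, and its largest adjusted p over all alternatives was 3.07e-08. Scaling by library size alone shifted the median of all genes by -0.08 on the log2 scale. Same-numbered libraries deviated from their group means with a correlation of -0.0262 across genes. That value shows no shift shared by number, but it cannot show whether the samples were paired, which the labels do not say. With a replicate block 10 members were called higher, as were 2652 genes in all, and 2300 were called lower. A fold change of at least 2 left 1725 genes higher and 1040 lower in all, 5 regulators of class II transcription, 6 antigen processing genes and 2 class I genes higher, 0 antigen processing, class I or B-lineage genes lower, and 0 T-cell markers higher. With any fold change, 3903 genes in all, 6 regulators and 2 turnover genes were lower, and 8 class I genes and 2 T-cell markers were higher. Scaling by library size alone gave 2 regulators lower, and leaving out 1 library gave 1 to 2, with 2 reached without Mek1/2-tKO replicate 2. The 1 lower call among B-lineage markers became 0 with DESeq2 size factors, with at least 10 counts in every library and with the replicate block, and 0 to 1 with 1 library left out, a group with 1 library being taken to vary like the other. The wider promoter gap raised the share of promoters from 0.566% to 1.25%. Changes with the fold threshold follow from the threshold, and the cause of the others was not tested.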
